A study of Lactuca sativa with 18 samples.

Results

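The change of gene expression in stored midribs was compared between Clemente (CL), a romaine lettuce (Lactuca sativa) line of medium browning, and Parris Island Cos (PC), its low-browning parent. The comparison is a difference of differences: the log2 change from day 0 to day 3 in CL minus the log2 change from day 0 to day 3 in PC. It used 8 of the 18 samples of the series, chosen by cultivar and day from the labels: 2 CL samples of day 3, 2 CL samples of day 0, 2 PC samples of day 3 and 2 PC samples of day 0. Tall Guzmaine (TG), the high-browning parent of CL, gave 2 samples of day 3 and 2 of day 0 that are shown beside them. All heads were harvested, cooled, trucked cold and held cold before the ribs were cut by hand into pieces, and the pieces were then kept at 5 °C, so day 0 pieces had the same cold history before cutting. Every midrib had been cut, so what cutting did and what storage in the cold did cannot be told apart. Whether replicates were taken from different heads is not stated, so the p-values cover the spread of these samples alone, which may be technical.

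Enzymatic browning of cut lettuce follows wounding. Phenylalanine ammonia-lyase opens the pathway that makes phenolic compounds, and polyphenol oxidases and peroxidases oxidise these to quinones, which form brown pigments once cell compartments are broken. A cultivar can therefore differ from another in its state at cutting, in its response after cutting, or in both, and a difference of differences alone does not say which. The genes carry NCBI GeneIDs and LOC symbols, with no product names in the reference used, so the genes of this pathway are not picked out below.

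The 8 libraries held 35603537 to 59153901 counts. Levels are given as CPM, counts set to a common library size after scaling by trimmed-mean (TMM) factors. These factors were 0.984 to 1.096 in the 4 day 3 libraries, and on day 0 they were 0.7804 and 0.7937 in CL against 1.118 and 1.167 in PC. The median absolute log2 ratio between the 2 libraries of a group was 0.215 in CL and 0.255 in PC on day 3, and 0.367 in CL and 0.399 in PC on day 0. On the first principal component of the 8 libraries, with 46.1% of the variance, the PC day 0 libraries stood at 163 and 220 and all others at or below -29.9. On the second, with 34.8%, the CL day 0 libraries stood at 160 and 167 and all others at or below -1.35.

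Storage changed 5188 of 21757 tested genes differently in CL and PC (23.8% of tested genes, adjusted p under 0.05, edgeR quasi-likelihood test with Benjamini-Hochberg adjustment). The change was more positive in CL for 2315 genes (10.6%) and more negative in CL for 2873 genes (13.2%). The difference was at least 2-fold for 4531 genes, at least 4-fold for 2480 and at least 16-fold for 808, and the median absolute log2 difference was 1.92 in the called genes and 0.961 over all tested genes. In tissue samples, fewer cells of a type and less RNA per cell cannot be told apart. Leaving out a day 3 library lowered the count to 2949 (CL replicate 1), 2383 (CL replicate 2) or 2701 (PC replicate 1), and leaving out PC day 0 replicate 2 lowered it to 3273. With no scaling factor the median over all genes moved by 0.39 on the log2 scale, and the split turned to 3916 genes more positive and 1836 more negative in CL, so directions are relative to the TMM scaling.

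**Figure D1:**
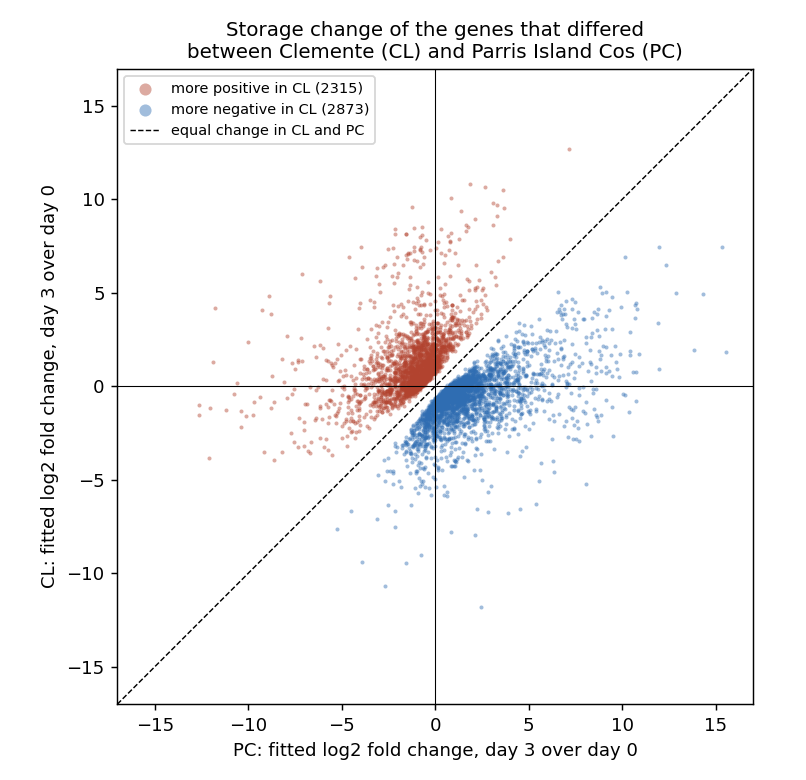
Fitted log2 fold change of day 3 over day 0 in CL (vertical axis) against PC (horizontal axis) for the 5188 genes whose change differed, coloured by direction; the dashed line marks equal change. The points spread along both axes, 2315 above the line and 2873 below it. For genes with a group at 0 counts the position depends on the prior count.

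In most of these genes the change itself passed the threshold in only 1 of the 2 cultivars. Over all tested genes 32% changed with storage in CL (16.5% rose and 15.5% fell) and 39.6% in PC (21.5% rose and 18.1% fell). These were 6960 genes in CL, or 3994 and 4034 when CL day 3 replicate 1 or 2 was left out, and 8615 in PC, or 5648 when PC day 3 replicate 1 was left out. With no scaling factor the CL split of 3585 up and 3375 down turned to 5546 up and 2088 down. Of the 5188 genes, 3831 (73.8%) had a change called in a single cultivar, 1500 of them in CL and 2331 in PC. A change called in a single cultivar is not by itself a difference, but in these genes the difference was also called. The largest class was that of 1414 genes that rose in PC and were not called in CL, where the median log2 change was -0.13 in CL and 1.81 in PC. Another 917 genes fell in PC and were not called in CL (medians 0.17 in CL and -1.58 in PC). In CL alone, 773 genes rose (medians 1.82 in CL and -0.24 in PC) and 727 fell (medians -1.58 in CL and 0.14 in PC). The difference was called in 52.5% of the 2692 tested genes that rose in PC alone and 43.2% of the 2125 that fell in PC alone. For CL alone the shares were 48.3% of 1601 genes that rose and 46.6% of 1561 that fell. A change called in a single cultivar was also the most common kind among all tested genes with a called change. Opposite changes were called for 560 genes (10.8%), of which 284 rose in CL and fell in PC and 276 fell in CL and rose in PC. These were 100% of the tested genes with opposite called changes. Changes of opposite sign add up in the difference, so this share was largely set in advance. A further 608 genes moved the same way in both by unequal amounts, 371 up and 237 down, and 189 were called in neither cultivar. The 608 were 18.8% of the 3238 tested genes that moved the same way in both, and the 189 were 1.89% of those called in neither.

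The genes with the largest positive differences had their highest CL and PC levels in PC on day 0, at many times the PC level of day 3. LOC111897500 stood at 0.412 and 0.282 CPM on day 3 and 0.58 and 0.46 CPM on day 0 in CL, while PC had 0.214 and 0.241 CPM on day 3 against 101 and 204 CPM on day 0. Only the PC day 0 libraries were high, and neither overlapped any other library. Its level fell 668-fold in PC, and the log2 difference between the changes was 8.83 (SE 0.65, adjusted p = 0.000183, edgeR). LOC111903865 showed the same picture, with 0.997 and 1.01 CPM on day 3 and 5.03 and 0.632 CPM on day 0 in CL, and with 0.285 and 0.289 CPM on day 3 against 125 and 373 CPM on day 0 in PC (log2 difference 8.24, SE 1.22, adjusted p = 0.00216). Its CL day 0 libraries differed widely from each other, yet both stayed far below PC day 0. LOC111900119 had 3.92 and 4.45 CPM on day 3 and 1.64 and 2.13 CPM on day 0 in CL, and 3.14 and 4.73 CPM on day 3 against 130 and 230 CPM on day 0 in PC. Day 3 levels of LOC111900119 in CL and PC overlapped, and its difference of 6.67 (SE 0.60) lay in the PC day 0 libraries.

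Across all 10 genes named for a positive difference, the PC day 0 libraries held 15.6 to 404 CPM and no other CL or PC library of these genes exceeded 12.1 CPM. All 10 fell in PC, by 7.26-fold to 866-fold. In CL 3 of the 10 rose and the other 7 were not called. LOC111910273, with the smallest adjusted p of all tested genes (9.79e-05), was among those that rose in CL. It reached 9.21 and 12.1 CPM on day 3 against 0.918 and 1.03 CPM on day 0 in CL, a 10.9-fold rise, and fell 7.26-fold in PC, with 8.59 and 10.4 CPM on day 3 against 55.3 and 82.8 CPM on day 0. CL started from below and PC from above, and both ended near 10 CPM. LOC111920231 rose 3.84-fold and LOC111895347 3.12-fold in CL, while they fell 27.6-fold and 32.4-fold in PC. LOC111876146, LOC111906680 and LOC111906950 were not called in CL and fell 44.2-fold, 63.1-fold and 83.7-fold in PC. LOC111879456, a long non-coding RNA in the name table, fell 76.8-fold in PC. LOC111906950 overlaps a neighbouring gene in the name table, so its reads may be shared.

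In all 10 genes the PC day 0 library of replicate 1 was the lower of the pair. The differences stayed past the threshold without any single library, but their sizes moved. Without PC day 0 replicate 2 the log2 difference was 8.22 for LOC111897500, 7.24 for LOC111903865, 5.98 for LOC111920231, 5.97 for LOC111895347, 5.27 for LOC111876146 and 5.70 for LOC111906680. Without PC day 0 replicate 1 it was 8.83 for LOC111903865 and 7.19 for LOC111876146. Leaving out CL day 0 replicate 1 gave 10.4 for LOC111903865 and 6.83 for LOC111879456, and leaving out CL day 0 replicate 2 gave 7.42 for LOC111903865, 7.06 for LOC111906680 and 7.07 for LOC111906950. LOC111895347 stood at 5.70 without CL day 3 replicate 1.

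The genes with the largest negative differences had their lowest CL and PC levels in PC on day 0. LOC111901912 had 2166 and 2448 CPM on day 3 and 1103 and 1031 CPM on day 0 in CL, and 2901 and 2899 CPM on day 3 against 19.7 and 8.38 CPM on day 0 in PC. It rose 207-fold in PC and was not called in CL (adjusted p = 0.0633), with a log2 difference of -6.58 (SE 0.63, adjusted p = 0.000485, edgeR). TG held 2418 and 2892 CPM on day 3 and 694 and 1543 CPM on day 0, so the PC day 0 libraries were the lowest of all 12. LOC111904674 stood at 537 and 546 CPM on day 3 and 1240 and 603 CPM on day 0 in CL, and at 281 and 231 CPM on day 3 against 4.96 and 2.99 CPM on day 0 in PC (log2 difference -6.78, SE 0.50). LOC111909312 rose 183-fold in PC, to 72.4 and 82.7 CPM on day 3 against 0.51 and 0.337 CPM on day 0, and had 140 and 94.1 CPM on day 3 and 62.8 and 76.9 CPM on day 0 in CL. For both genes, every CL library and every PC day 3 library lay above both PC day 0 libraries. LOC111920277 rose 96.6-fold in PC, to 37.6 and 26.2 CPM on day 3 against 0.371 and 0.289 CPM on day 0, with 45.1 to 77.2 CPM over the 4 CL libraries.

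A set of these genes averaged over 1000 CPM in CL on day 0 and differed widely between the PC day 0 replicates. LOC111906326 had 2002 and 2192 CPM on day 3 and 5022 and 2229 CPM on day 0 in CL, and 1014 and 918 CPM on day 3 against 25.3 and 1.01 CPM on day 0 in PC. LOC111911881 had 1476 and 1365 CPM on day 3 and 3008 and 1252 CPM on day 0 in CL, and 481 and 469 CPM on day 3 against 9.50 and 0.915 CPM on day 0 in PC. LOC111919126 had 635 and 900 CPM on day 3 and 2890 and 380 CPM on day 0 in CL, and 529 and 252 CPM on day 3 against 3.89 and 0.385 CPM on day 0 in PC. In each of them PC replicate 1 held at least 10 times the level of replicate 2 on day 0, with ratios of 25 in LOC111906326, 10.4 in LOC111911881 and 10.1 in LOC111919126. The ratio was 12.4 in LOC111908911 and 20.1 in LOC111892410, which rose 42-fold and 34.2-fold in PC and were not called in CL. Both PC day 0 libraries nonetheless lay below all other CL and PC libraries in all 10 genes named for a negative difference.

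LOC111903273 was the only gene of these 10 with a called change in CL. It fell 31.8-fold in CL, to 2.27 and 1.63 CPM on day 3 against 63.6 and 60.4 CPM on day 0, and rose 5.82-fold in PC, to 4.10 and 3.52 CPM on day 3 against 1.02 and 0.289 CPM on day 0 (log2 difference -7.51, SE 0.62, adjusted p = 0.000243, edgeR). Here it was CL day 0 that stood far above the rest. All 10 differences kept their direction without any single library. The call of LOC111906326 was lost without CL day 3 replicate 2 (-7.06, adjusted p = 0.0528) and that of LOC111892410 without CL day 3 replicate 1 (-6.33, adjusted p = 0.0526), against adjusted p of 0.0101 and 0.0105 with all libraries.

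The sizes again turned on the PC day 0 libraries. Without replicate 1 of PC day 0 the log2 difference was -11.1 for LOC111919126, -10.7 for LOC111906326, -9.95 for LOC111892410, -9.59 for LOC111911881, -9.33 for LOC111908911, -8.68 for LOC111903273 and -7.31 for LOC111901912. Without replicate 2 it was -7.74, -6.05, -5.65, -6.23, -5.72 and -6.88 for the first 6 of these genes in the same order. Leaving out CL day 0 replicate 1 gave -6.49 for LOC111919126, -6.33 for LOC111911881, -6.29 for LOC111906326 and -6.16 for LOC111904674. LOC111919126 was at -9.42 without CL day 0 replicate 2 and at -7.96 without PC day 3 replicate 1.

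**Figure D2:**
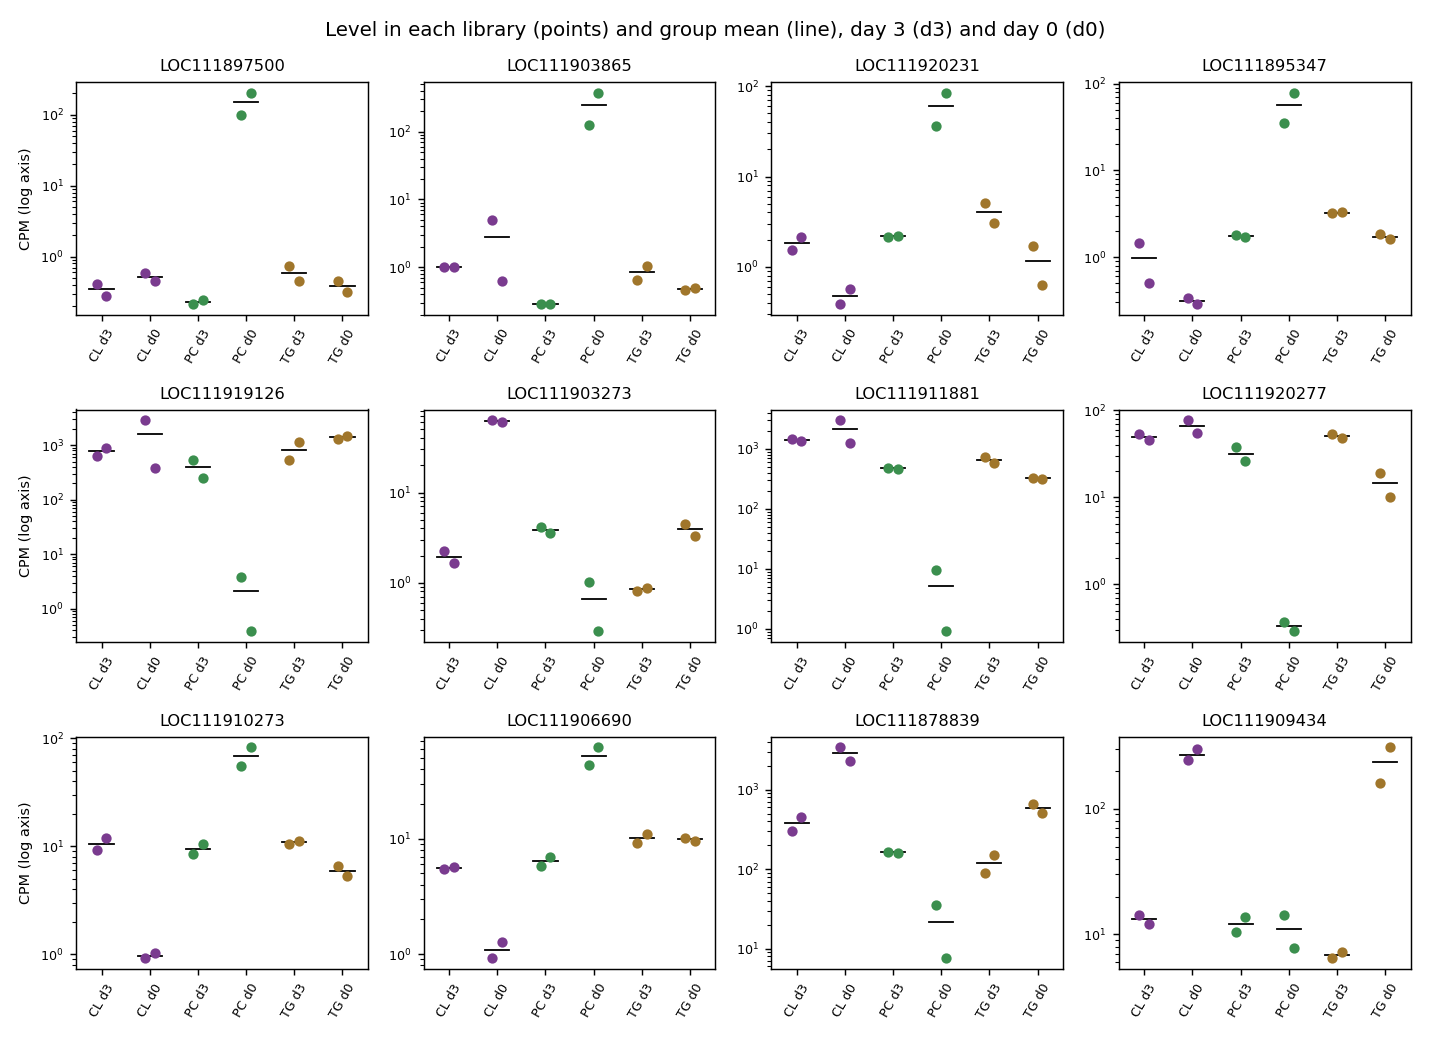
Level of 12 genes in CPM (log axis) in each library (points) with group means (lines), for CL, PC and TG on day 3 (d3) and day 0 (d0). The first row holds 4 genes high in PC day 0 alone, the second 3 genes low in PC day 0 and LOC111903273, and the third 2 genes that rose in CL and fell in PC, LOC111878839 that did the reverse, and LOC111909434 that fell in CL and was flat in PC.

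Over all called genes, too, the day 0 libraries stood apart, most often those of PC. Both CL day 0 libraries lay outside the range of the other 6 in 3084 of the 5188 genes (59.4%, against 36% of all tested genes), below it in 1497 of the genes with a more positive difference and above it in 1585 of those with a more negative one. Both PC day 0 libraries lay outside the other 6 in 3800 genes (73.2%, against 40.4% of all tested), above in 1614 of the more positive and below in 2185 of the more negative genes. For CL day 3 the number was 485 (9.35%, against 10.9% of all tested) and for PC day 3 it was 643 (12.4%, against 17.3%). A gene can count for more than 1 group, and the difference was computed from these libraries, so a higher share than in all tested genes is partly set by the selection. The counts for PC day 0 were 3834 of 5224 called genes with DESeq2-type (RLE) size factors and 4198 of 5752 without a scaling factor.

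**Figure D3:**
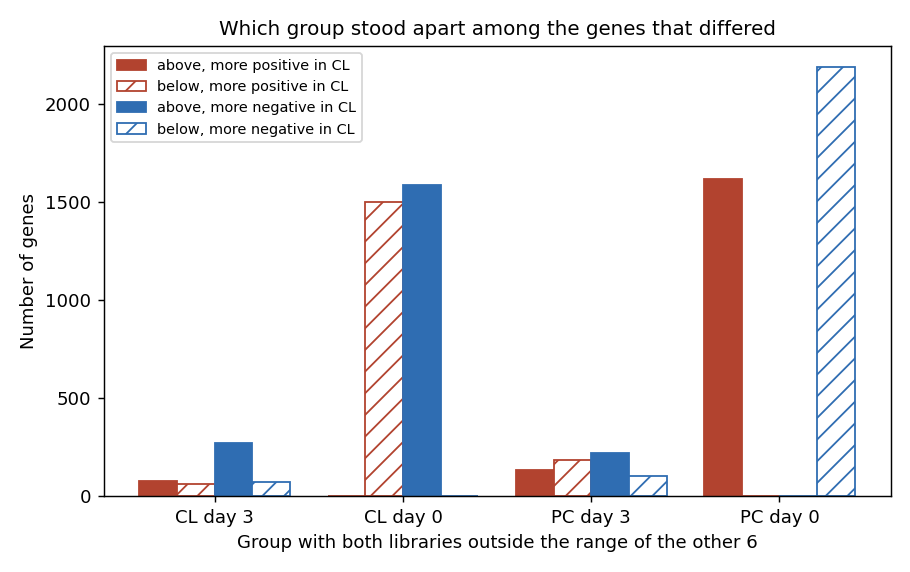
Number of called genes (vertical axis, bars from 0) in which both libraries of a group lay above (filled) or below (hatched) all 6 libraries of the other 3 groups, by direction of the difference. CL day 0 has 1497 genes below and 1585 above, and PC day 0, with the tallest bars, has 1614 above and 2185 below.

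The 2 libraries of a group also differed from each other along the direction of the difference, most in PC day 0. In CL day 3 replicate 1 was the higher in 66.8% of the genes with a more negative difference and in 37.2% of those with a more positive one, against 48.7% of all tested genes. In CL day 0 the corresponding shares were 52.5% and 46.3%, against 46.2% of all tested genes. They were 57% and 40.3% in PC day 3, against 48.6% of all, and 84.9% and 17.3% in PC day 0, against 49.8% of all. In PC day 0 replicate 2 thus had the higher level in most of the more positive genes and the lower level in most of the more negative ones. The part that this gap between the PC day 0 libraries has in the result was not tested beyond leaving out either library, which gave 6028 called genes without replicate 1 and 3273 without replicate 2. Of the 5188 genes, 4764 were called in the same direction without replicate 1 and 3183 without replicate 2.

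Read by day, the cultivars differed on day 0 and much less on day 3. CL and PC differed in 0.915% of all tested genes on day 3 (0.515% higher and 0.4% lower in CL) and in 45.8% on day 0 (23.8% higher and 21.9% lower in CL). With no scaling factor the day 0 split of 5179 higher and 4775 lower in CL turned to 3103 higher and 7851 lower. Of the 5188 genes, 46 differed between CL and PC on day 3 and 5077 on day 0. In these genes the gap between CL and PC, as the absolute log2 fold change, had a median of 0.276 on day 3 and 1.98 on day 0. A floor of 3 counts per library in place of 0 counts gave 0.274 on day 3 and 1.97 on day 0. Over all tested genes it was 0.312 on day 3 and 1.02 on day 0. The gap was the smaller on day 3 in 5080 of the 5188 genes (97.9%, against 78.9% of all tested). These genes were selected for a change of this gap between days, so a higher share than in all tested genes is partly set by the selection. The day 3 count of 199 over all tested genes was 59 to 69 without any single library of that day, 303 and 307 without PC day 0 replicate 1 and 2, and 659 with DESeq2.

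**Figure D4:**
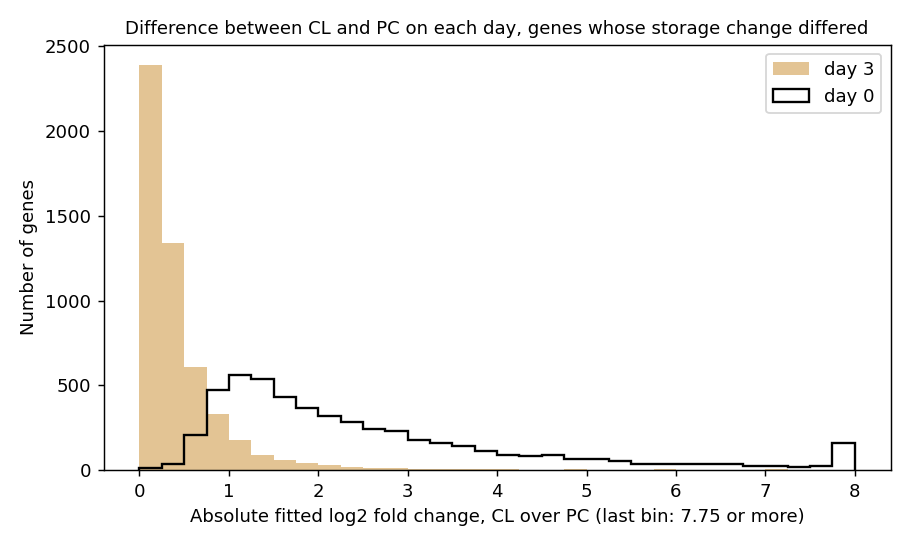
Absolute fitted log2 fold change of CL over PC (horizontal axis) in the 5188 called genes, as a histogram of gene numbers for day 3 (filled) and day 0 (line). The day 3 values pile up near 0 (median 0.276), and the day 0 values peak above 1 with a long tail (median 1.98).

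Few genes went against this closing of the gap. The order of CL and PC turned round between days, with a called difference on both, in 3 genes, which are named because they were the only ones. LOC111909355 had 0.412 and 0.563 CPM in CL against 2.98 and 2.99 CPM in PC on day 3, and 5.00 and 6.03 CPM in CL against 1.55 and 1.81 CPM in PC on day 0 (log2 difference -4.33, SE 0.58, adjusted p = 0.00132, edgeR). GeneID_111901946, which is not in the name table, had 23.6 and 25.8 CPM in CL against 94.1 and 70.6 CPM in PC on day 3, and 75.6 and 81.1 CPM in CL against 34.5 and 21.0 CPM in PC on day 0. LOC111918965 had 11.7 and 9.91 CPM in CL against 29.4 and 39.5 CPM in PC on day 3, and 36.4 and 34.8 CPM in CL against 27.8 and 17.9 CPM in PC on day 0. All 3 fell in CL, whose libraries were the lower on day 3 and the higher on day 0 without overlap. In PC GeneID_111901946 rose (adjusted p = 0.000737), and the other 2 genes were not called.

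A difference on day 3 with none called on day 0 was found for 8 of the 5188 genes, against 12 of all 21757 tested genes. The largest of the 8 were in LOC111910392 and LOC111905001, both pseudogenes in the name table and chosen after their values had been seen. LOC111910392 had 0.344 and 0 CPM in CL against 5.49 and 6.78 CPM in PC on day 3, and 5.27 and 10.8 CPM in CL and 13.3 and 8.38 CPM in PC on day 0 (log2 difference -4.53, SE 1.07, adjusted p = 0.0149, edgeR). CL day 3 replicate 2 had no counts, so the CL day 3 level rests on the 20 counts of replicate 1. The log2 difference was -10.7 or -3.72 when CL day 3 replicate 1 or 2 was left out, and -3.92 when CL day 0 replicate 2 was. The value of -10.7 depends on the prior count, since CL day 3 was then at 0 counts. LOC111905001 had 1.43 and 1.63 CPM in CL against 0.0713 and 0.145 CPM in PC on day 3. On day 0 it had 1.76 and 1.38 CPM in CL and 0.788 and 1.49 CPM in PC. The PC day 3 values rest on 10 counts over both libraries, near the floor. The call of LOC111905001 was lost without CL day 3 replicate 2, PC day 0 replicate 2 or PC day 3 replicate 1.

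Genes that moved in CL and stayed level in PC form the counterpart to those above. The 6 given here were chosen after their values had been seen, as the largest CL changes among genes not named above with a PC change under 0.25 on the log2 scale that was not called. LOC111921359 rose in CL to 11.4 and 9.74 CPM on day 3, against 0.387 and 0.517 CPM on day 0, and had 6.83 and 11.1 CPM on day 3 and 6.82 and 11.4 CPM on day 0 in PC (log2 difference 4.57, SE 0.53, adjusted p = 0.000834, edgeR). LOC111901154 rose in CL to 14.4 and 12.6 CPM on day 3, against 0.773 and 0.46 CPM on day 0, and had 14.5 and 13.8 CPM on day 3 and 10.01 and 23.6 CPM on day 0 in PC. In both genes the CL day 0 libraries were far below all other CL and PC libraries. TG was as low on day 0 in LOC111901154, at 0.495 and 0.224 CPM, and rose 39.3-fold. LOC111892728 rose in CL to 9.55 and 7.83 CPM on day 3, against 0.822 and 0.804 CPM on day 0, with 10.9 to 14.0 CPM over the 4 PC libraries. The difference of LOC111901154 was 3.93 without PC day 0 replicate 2 and 4.68 with it.

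In the other direction, LOC111909434 fell in CL to 14.4 and 11.99 CPM on day 3, against 242 and 296 CPM on day 0, and had 10.5 and 13.9 CPM on day 3 and 14.2 and 7.76 CPM on day 0 in PC (log2 difference -4.50, SE 0.50, adjusted p = 0.000817, edgeR). In TG this gene had 6.44 and 7.30 CPM on day 3 against 159 and 308 CPM on day 0. LOC111904540 fell in CL to 3.14 and 3.15 CPM on day 3, against 77.8 and 62.2 CPM on day 0, while PC held 2.84 to 6.95 CPM throughout. LOC111890107 fell in CL to 0.928 and 0.338 CPM on day 3, against 30.4 and 9.36 CPM on day 0, with 0.517 to 0.724 CPM in PC. The CL day 0 libraries alone were high in these 2 genes among the CL and PC libraries. The difference of LOC111904540 was -5.41 without PC day 0 replicate 1. That of LOC111890107 was -4.94, and leaving out a CL library gave -3.87 (day 0, replicate 1), -5.55 (day 0, replicate 2) or -5.87 (day 3, replicate 1).

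Opposite and large changes were seen at both low and high levels, in genes chosen after their values had been seen by the size of the smaller of their CL and PC changes, leaving out the genes named above. LOC111906690 rose in CL to 5.50 and 5.69 CPM on day 3, against 0.918 and 1.26 CPM on day 0, and fell in PC to 5.81 and 6.90 CPM on day 3, against 43.0 and 61.8 CPM on day 0 (log2 difference 5.40, SE 0.36, adjusted p = 0.000153, edgeR). LOC111910620 rose in CL to 18.3 and 28.4 CPM on day 3, against 4.52 and 2.76 CPM on day 0, and fell in PC to 14.1 and 10.3 CPM on day 3, against 58.1 and 95.2 CPM on day 0. In both genes the levels of CL and PC lay nearer to each other on day 3 than on day 0. LOC111911245 rose in CL to 1.44 and 2.25 CPM on day 3, against 0.29 and 0.345 CPM on day 0, and fell in PC to 0.82 CPM in both libraries on day 3, against 5.01 and 15.5 CPM on day 0. Its difference of 6.17 was 6.77 when PC day 0 replicate 1 was left out and 5.13 when replicate 2 was.

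Falls in CL with rises in PC included abundant transcripts. LOC111878839 fell in CL to 303 and 451 CPM on day 3, against 3414 and 2283 CPM on day 0, and rose in PC to 165 and 161 CPM on day 3, against 35.3 and 7.56 CPM on day 0 (log2 difference -5.84, SE 0.86, adjusted p = 0.00212, edgeR). LOC111911480 fell in CL to 8.63 and 9.46 CPM on day 3, against 86.6 and 51.5 CPM on day 0, and rose in PC to 8.10 and 6.08 CPM on day 3, against 1.44 and 0.578 CPM on day 0. LOC111907916 fell in CL to 153 and 168 CPM on day 3, against 2083 and 384 CPM on day 0, and rose in PC to 21.2 and 21.0 CPM on day 3, against 4.57 and 1.83 CPM on day 0. In LOC111878839 and LOC111907916 all CL libraries stayed above all PC libraries on both days. Without PC day 0 replicate 1 the difference was -7.34 for LOC111878839, -6.54 for LOC111911480 (-5.74 with it) and -6.45 for LOC111907916 (-5.66 with it). It was -5.13 for LOC111878839 without PC day 0 replicate 2, and for LOC111907916 it was -3.98 or -6.42 when CL day 0 replicate 1 or 2 was left out.

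In 211 of the 5188 called genes at least 1 of the 4 groups had 0 counts in both libraries, against 1872 of all 21757 tested genes. The 4 named by rule reached at least 10 CPM in another group. LOC111908135 had 0 counts in both PC day 0 libraries and 144 and 124 CPM in PC on day 3, a rise of at least 1890-fold, and stood at 389 and 393 CPM on day 3 and 132 and 89.6 CPM on day 0 in CL (adjusted p of the difference 0.00145, edgeR). LOC111919497 likewise had 0 counts in PC on day 0 and 2.07 and 1.88 CPM on day 3, a rise of at least 27.9-fold, while CL fell 6.21-fold, to 25.3 and 33.0 CPM on day 3 against 210 and 152 CPM on day 0 (adjusted p = 0.00901). Both genes were expressed in CL on day 0 and without a count in PC. The call of LOC111919497 was lost with no filter on low counts (adjusted p = 0.0527).

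LOC111919307 had 0 counts in PC on day 3 against 9.69 and 10.7 CPM on day 0, a fall of at least 162-fold, and 20 counts on day 3 and 6 counts on day 0 over both CL libraries (adjusted p = 0.0117, edgeR). LOC111910180 fell 73.7-fold in PC, to 0.143 and 0.145 CPM on day 3 against 5.52 and 15.7 CPM on day 0, and had 12 counts on day 3 and none on day 0 in CL. The fitted differences of these genes depend on the prior count and are no bounds. That of LOC111919307 was 13.2, and leaving out a CL library gave 12.1 (day 0, replicate 1), 18.2 (day 0, replicate 2) or 12.3 (day 3, replicate 1), with the call lost in the last case (adjusted p = 0.0696). That of LOC111910180 was 11.8, with 12.4 when PC day 0 replicate 1 was left out and 10.9 when replicate 2 was.

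TG, whose 4 libraries do not enter the contrast, had a change nearer to the CL change than to the PC change in most of these genes, though not by the medians of every class. On the log2 scale of group means, the TG change lay nearer to the CL change than to the PC change in 3605 of the 5188 genes (69.5%, against 59.2% of all tested genes). The share was 63.8% of the more positive and 74.1% of the more negative genes. The TG change lay between those of CL and PC in 79%, beyond that of CL in 17.2% and beyond that of PC in 3.72% of the called genes, against 47.9%, 31% and 21.1% of all tested genes. Called genes were chosen for a wide gap between CL and PC, which by itself raises the share between, and a choice of genes by an extreme PC change raises the share nearer to CL. In the 773 genes that rose in CL alone the median log2 change was 1.82 in CL, -0.24 in PC and 0.69 in TG, nearer to PC. In the 237 genes that fell in both it was -2.06 in CL, -1.89 in PC and -1.68 in TG, beyond both on the side of PC. That class mixes 117 more positive and 120 more negative differences, so its medians do not place TG gene by gene. The median log2 change of the 727 genes that fell in CL alone was -1.58 in CL, 0.14 in PC and -0.905 in TG, nearer to CL. In the 1414 genes that rose in PC alone it was -0.13 in CL, 1.81 in PC and 0.37 in TG, nearer to CL. The median log2 change of the more negative genes was -0.55 in CL, 1.26 in PC and -0.04 in TG, and that of the more positive genes was 0.89 in CL, -0.96 in PC and 0.14 in TG. By level, TG stood nearer to CL than to PC in 50.2% of the called genes on day 3 and in 58.6% on day 0. Over all tested genes these shares were 52.7% and 55.2%.

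**Figure D5:**
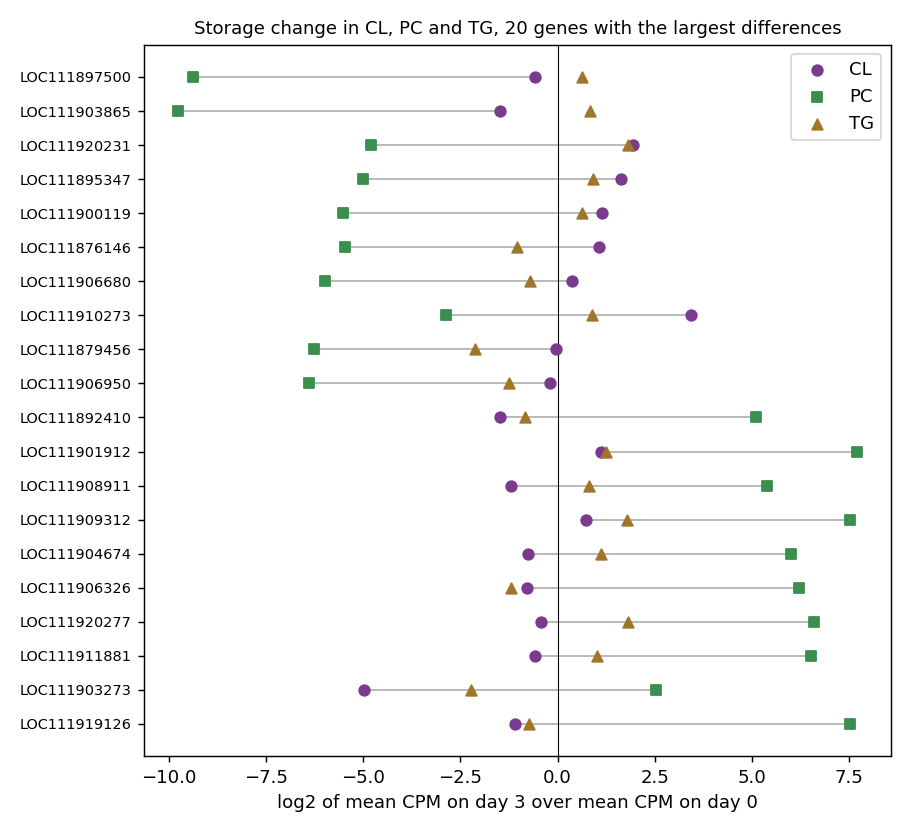
Log2 of mean CPM on day 3 over day 0 in CL (circles), PC (squares) and TG (triangles) for the 20 genes named for the largest positive and negative differences, with grey lines joining CL and PC. In all 20 genes the TG change lies nearer to the CL change than to the PC change, as a choice of genes with extreme PC day 0 levels favours.

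In the 20 genes named for the largest differences the PC day 0 libraries were the extreme ones, and such a choice favours a TG change nearer to CL, so their TG values are given as a description. LOC111897500 and LOC111903865, at 101 to 373 CPM in PC on day 0, did not exceed 1.04 CPM in any TG library. LOC111911881 held 728 and 574 CPM on day 3 and 325 and 317 CPM on day 0 in TG, between CL and PC on day 0. LOC111910273 lay at 10.6 and 11.3 CPM on day 3 and at 6.59 and 5.28 CPM on day 0 in TG, close to both cultivars on day 3 and between them on day 0. In LOC111906326 the TG level was 1052 and 1494 CPM on day 3 and 1955 and 3850 CPM on day 0.

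The called genes were spread unevenly over expression levels. With tested genes split into 5 equal classes by mean CPM of the 8 libraries, 40.9% were called in the highest class (52 CPM and above) and 2.73% in the lowest (up to 0.647 CPM). Within the highest class 1331 genes had a more negative and 451 a more positive difference in CL, while in the middle class (3.85 to 16 CPM) the numbers were 463 and 748. This split of the highest class went to 785 more negative and 882 more positive genes without a scaling factor. At 1000 CPM or more in CL on day 0 there were 96 genes with a more negative difference, of which 33 were under 100 CPM in PC on day 0. The reverse, 1000 CPM or more in PC on day 0 with a more positive difference, was found for 20 genes, of which 2 were under 100 CPM in CL on day 0. These counts rest on the TMM scaling too. They were not computed without a scaling factor, nor over all tested genes at these levels.

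By kind of gene, 4934 of 19259 tested protein-coding genes were called (25.6%), as were 115 of 1184 long non-coding RNAs (9.71%) and 50 of 318 pseudogenes (15.7%). The level of these kinds differs, and the share by kind was not computed within levels. Among genes that lie next to each other in the name table with both called, 58.8% of 1343 pairs had the same direction, against 50.6% of all pairs of called genes wherever they lie. The longest row of neighbouring tested genes called in the same direction had 7 members, all more negative in CL. It ran LOC111881841, LOC111881915, LOC111881903, LOC111881904, LOC111881910, LOC111881909 and LOC111911461, with log2 differences of -2.32, -3.48, -2.49, -3.10, -2.78, -3.75 and -4.55 in that order. The PC changes of the last 3 were 3.37, 3.78 and 5.24 on the log2 scale. In total 4 rows had 5 or more members. A row of 5, also more negative in CL, held LOC111920277, named above, with LOC111911671, LOC111911683, LOC111920272 and LOC111920276. Another row of 5, from LOC111902705 to LOC111900953, was more negative in CL as well. The row of 5 from LOC111886241 to LOC111886177 was more positive in CL. Neighbours with similar sequence may share reads, which was not tested.

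LOC111889525, whose synonyms TIM and TPI stand for triosephosphate isomerase of glycolysis, and LOC111883376, whose synonym GS(1) stands for cytosolic glutamine synthetase, were looked at because the name table gives them a synonym. LOC111889525 had 420 and 427 CPM on day 3 and 497 and 512 CPM on day 0 in CL, and 454 and 406 CPM on day 3 against 336 and 289 CPM on day 0 in PC. It rose 1.37-fold in PC (adjusted p = 0.0443, edgeR) and was not called in CL, and the log2 difference was -0.71 (SE 0.23, adjusted p = 0.0461). In 13 of the 16 alternatives that call was lost, and the adjusted p reached 0.325. LOC111883376 had 872 and 881 CPM on day 3 and 615 and 744 CPM on day 0 in CL, and 846 and 859 CPM on day 3 against 593 and 562 CPM on day 0 in PC. Its change did not differ detectably between the cultivars (log2 difference -0.19, SE 0.23, adjusted p = 0.598), and it rose in PC (adjusted p = 0.0213).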

How the data were processed

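Midrib RNA was sequenced with paired-end reads, per the labels' protocols. Among the tools in the submitters' processing notes are STAR 2.4.0i, featureCounts and DESeq2; no genome build, annotation or strand setting was stated. The deposited day 0 and day 3 values are counts per NCBI GeneID, which were summed over the 64021 rows of a library to 46150 GeneIDs, of which 40695 had a symbol in the Lsat_Salinas_v11 name table. Of the values of 100 or more, 68.4% to 71.5% were even in the CL and PC libraries, as when both mates of a pair are counted, so molecules are fewer than counts. The authors' day 2 values were taken as a score and left out, because 98.9% to 99.8% of rows with a day 0 plus day 3 sum of at least 200 lay within 1 count of a scaled day 0 and day 3 mean.

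In edgeR 4.0.16 under R 4.3.3, genes were filtered with filterByExpr (21757 left), scaled by TMM and fitted with a robust quasi-likelihood model of 6 group means over the 12 day 0 and day 3 libraries of CL, PC and TG. Contrasts were tested by quasi-likelihood F with Benjamini-Hochberg adjustment over all tested genes at 0.05, and a standard error is the log2 fold change over the square root of F. Replicates of each CL and PC group differed by more than sampling noise (chi-square over degrees of freedom 11.2 to 62.8 on halved counts).

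Genes were named by rule: among called genes reaching 10 CPM in a group, the 10 most positive and 10 most negative differences with at least 10 counts in all 8 libraries, and 2 per direction with a group at 0 counts. Lists by gene product (browning enzymes, cell type markers and others) were planned but could not be matched, because the name table holds no product descriptions. Genes, lists and tests were chosen with earlier results of these data known. Floors are 3 counts per library and cover counting error only. The 16 alternatives were RLE or no scaling factors, no filter, DESeq2 1.42.0, only the 8 libraries, a replicate block, repeated GeneIDs left out, halved counts and each of the 8 libraries left out.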

Additional observations from a re-analysis of the deposited data

Results flagged for a closer look

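A test of the difference itself set the storage change of CL apart from that of PC for 5188 genes, among them the genes below, whose values are log2 differences of CL minus PC. They were 8.83 for LOC111897500, 8.24 for LOC111903865, 6.72 for LOC111920231, 6.68 for LOC111895347, 6.67 for LOC111900119, 6.52 for LOC111876146, 6.36 for LOC111906680, 6.30 for LOC111910273, 6.22 for LOC111879456 and 6.19 for LOC111906950. In all of these the PC day 0 libraries stood above the other 6.

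The negative differences were -8.60 for LOC111919126, -7.51 for LOC111903273, -7.09 for LOC111911881, -7.00 for LOC111920277, -6.99 for LOC111906326, -6.78 for LOC111904674, -6.76 for LOC111909312, -6.60 for LOC111908911, -6.58 for LOC111901912 and -6.57 for LOC111892410. In all of these the PC day 0 libraries stood below the other 6. With a group at 0 counts the fitted values, which depend on the prior count, were 13.2 for LOC111919307, 11.8 for LOC111910180, -13.8 for LOC111908135 and -12.1 for LOC111919497.

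Among genes chosen after their values had been seen, the differences were 4.57 for LOC111921359, 4.68 for LOC111901154 and 3.33 for LOC111892728, which rose in CL and were flat in PC, and -4.94 for LOC111890107, -4.63 for LOC111904540 and -4.50 for LOC111909434, which fell in CL and were flat in PC. Opposite changes gave 5.33 for LOC111910620, 6.17 for LOC111911245, 5.40 for LOC111906690, -5.84 for LOC111878839, -5.74 for LOC111911480 and -5.66 for LOC111907916. The order of the cultivars turned in LOC111909355 (-4.33), GeneID_111901946 (-3.24) and LOC111918965 (-2.31). LOC111910392 (-4.53) and LOC111905001 (3.36) differed on day 3 without a call on day 0, and LOC111889525 was at -0.71.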

How the results depend on the processing

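Of the 24 genes named by rule, 20 passed the threshold in the same direction under all 16 alternatives, and none of the 24 was reversed. The other 4, LOC111906326, LOC111892410, LOC111919307 and LOC111919497, each lost the call under a single alternative. The count of genes whose change differed was 2383 to 6028 without any single library, and 2111 of the 5188 genes (40.7%) were called in the same direction without each of the 8 libraries in turn, 2067 under all 16 alternatives. DESeq2 called 6641. Without any single library, the storage change was called for 3994 to 7386 genes in CL and for 5648 to 8695 in PC, and CL differed from PC in 59 to 307 genes on day 3 and in 6827 to 9414 on day 0. DESeq2 called 659 genes on day 3, against 199. Without a scaling factor the splits became 5546 up and 2088 down in CL and 3103 higher and 7851 lower in CL than in PC on day 0, and the difference of LOC111883376 turned to 0.20. In the highest of 5 classes by level, 882 genes were then more positive and 785 more negative.

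The numbers of the replicates do not pair the samples by their labels, and deviations of same-numbered libraries from their group means correlated by -0.086 to 0.0668 across genes. With a replicate block, 4877 genes were called for the difference, 4718 of them shared with the 5188, and the counts of the other comparisons stayed within 1.5 times. In the lowest of the 5 classes by level, 119 genes were called and the median absolute log2 difference over all its genes was 1.90. Why few were called there was not tested.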
